A study of Mus musculus with 6 samples.

Results

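The axon guidance genes of mouse dermal fibroblasts were examined, namely the semaphorins, plexins, ephrins, Eph receptors, netrins, slits, Robo receptors and Unc5 receptors. They were taken by gene symbol, from families chosen with earlier results of these data known. Of the 22180 named genes on the array, 64 belonged to these families. The families held 20 semaphorins, 9 plexins, 13 Eph receptors, 8 ephrins, 3 netrins, 3 slits, 4 Robo receptors and 4 Unc5 receptors. Ephb2 and Ntn5 were not analysed here.

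The fibroblasts came from female C57BL/6-background mice aged 8 to 12 weeks, in 3 samples of K14-PTHrP (KrP) transgenic mice and 3 samples of their wild-type (WT) littermates. KrP cells were from nipple-like ventral skin and WT cells from ventral skin in telogen, the resting stage of the hair cycle. In KrP mice the keratin 14 promoter, which is active in basal keratinocytes, drives parathyroid hormone-related protein, so the sorted fibroblasts are not the cells that the promoter targets. The GEO descriptions of KrP 2 and KrP 3 name other keratins, while their genotype labels name K14, and the genotype labels were used. Cells were pooled before the sort, and 3 mice are named as the source without saying whether per sample or per genotype. No label shows separate animals or cultures behind the samples, so every p-value reflects variation among these arrays alone, and that variation may be technical. Viable CD140-positive cells lacking CD31, CD45, CD117 and CD49f were collected, and each sample was measured on 1 array.

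Axon guidance molecules were named for steering growing nerve fibres, but mesenchymal, epithelial and vascular cells use them too, to set cell repulsion, adhesion and tissue boundaries. Semaphorins signal through plexins, with neuropilins as co-receptors for most secreted class 3 semaphorins. Ephrins are bound to the cell surface and signal on contact with Eph receptor kinases, slits are secreted ligands of Robo receptors, and netrins act through Dcc, neogenin and Unc5 receptors. In skin such cues reach sensory nerves, vessels and neighbouring epithelium.

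All values are log2 expression values as deposited. The signal of 1088 olfactory receptor genes, which dermal fibroblasts are not known to use widely, gave a guide to background, and the 95th percentile of their mean levels was 6.27. Of the 64 guidance genes, 52 had a mean over the 6 arrays above this level, against 13460 of all 22180 genes. The 10 genes below it in both groups were Sema4f, Sema4g, Plxnb1, Plxnb3, Epha1, Epha5, Epha6, Ephb1, Robo3 and Robo4, and differences at that level are compressed. Signals of different genes depend on their probes, so the background guide and any mention of a high or low signal are rough. Guidance genes were ranked by mean signal only to pick which genes were given sample by sample. The array medians lay between 6.34 and 6.43. Fibroblast markers were high in all samples, with a mean over the 10 markers of 11.79 to 12.32 in KrP samples and 11.39 to 11.96 in WT samples. WT 2 stood apart in keratinocyte markers. The mean over 10 such genes was 6.90 there, against 6.14 to 6.22 in the other WT samples, while KrP samples had 6.03 to 6.30. Itga6, the gene of CD49f, varied among samples, with 6.49, 8.16 and 8.01 in KrP samples, against 7.16, 7.91 and 7.16 in WT samples. KrP 1 was thus the lowest of all samples, and KrP 2 and KrP 3 were the highest.

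Guidance genes differed between KrP and WT fibroblasts in both directions. In a limma fit over all genes, 3 of the 64 rose in KrP samples (4.69%), where 1.15% of all genes rose, and 4 fell (6.25%), where 1.03% of all genes fell, at a Benjamini-Hochberg adjusted p under 0.05. The risers were Sema3a, Plxnc1 and Unc5c, and Plxna2, Plxnd1, Epha4 and Efnb1 fell. Among genes above the background guide, 2 of 52 guidance genes rose and 4 fell, against 237 and 208 of 13460 genes. With the replicate number as a block, 10 of the 64 rose (15.6%), where 5.33% of all genes did, and 9 fell (14.1%), where 3.02% of all genes did. Unless another setting is named, a gene passed where it did so in the fit of all 6 samples with no block and equal array weights. The 12 guidance genes added by the block did not pass in that fit. Each of the 12 passed with array weights and no block, a setting that called 6410 of all genes, and some passed in further settings without a block. In 16 guidance genes every KrP sample lay above every WT sample (25%, against 11.4% of all genes), and in 11 every KrP sample lay below (17.2%, against 8.93%). The median difference was 0.02 over the guidance genes and 0.01 over all genes, and the median size of the difference without its sign was 0.38 and 0.14 on the log2 scale. These shares describe genes picked with earlier results of these data known.

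**Figure D1:**
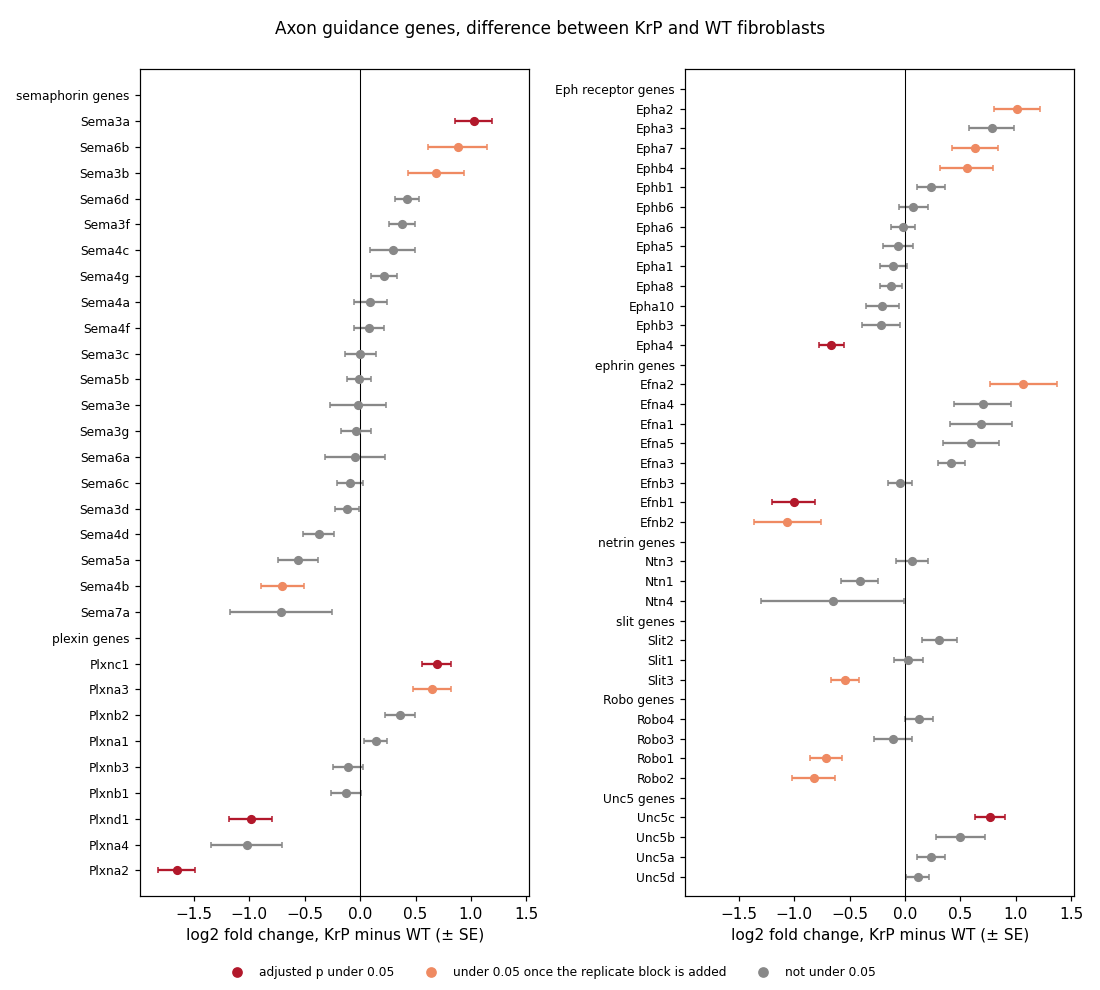
Difference between KrP and WT fibroblasts (log2 fold change, horizontal axis, points with SE bars, n = 3 samples each) for the 64 guidance genes, listed by family from the highest to the lowest difference. The 7 genes passing the test lie at -1.65 to 1.02, and 12 more pass once the replicate block is added to the fit of all 6 samples.

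Among the ligands of the semaphorin family, Sema3a rose in KrP fibroblasts. Sema3a, a secreted semaphorin that repels sensory nerve fibres, had log2 values of 9.50, 9.34 and 9.39 in KrP samples, against 8.41, 8.08 and 8.67 in WT samples. The groups did not overlap, and the KrP samples lay close together. The difference was 2.03-fold (log2 fold change 1.02 ± 0.16 SE, limma adjusted p = 0.0228). Its call ended without KrP 1 (adjusted p = 0.0540), KrP 3 (0.129) or WT 1 (0.0722), while its log2 fold change stayed between 0.83 and 1.17 over all alternatives.

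The other 19 semaphorins did not pass in the fit of all samples without the block. Sema3b, a secreted member, had 8.43, 8.89 and 9.25 in KrP samples, against 7.74, 8.29 and 8.48 in WT samples, so the groups overlapped. Within each numbered pair the KrP value was the higher one, and the log2 fold change of 0.69 ± 0.25 passed with the block or with array weights (adjusted p = 0.232, with the block 0.0124, with array weights 0.00815). Sema6b, a transmembrane semaphorin, had 8.98, 8.32 and 8.31 in KrP samples, against 8.04, 7.15 and 7.78 in WT samples, without overlap (adjusted p = 0.153, with the block 0.0161). Sema4b, another transmembrane member, ran the other way, with 9.53, 10.04 and 9.32 in KrP samples, against 10.53, 10.31 and 10.15 in WT samples. Every KrP sample lay below every WT sample (log2 fold change -0.70 ± 0.20), at an adjusted p of 0.129, or of 0.0375 with the block. Sema6d, whose protein also spans the membrane, had a high signal throughout, at 12.05, 12.28 and 11.93 in KrP samples, against 11.62, 11.62 and 11.75 in WT samples. Its groups did not overlap, and the log2 fold change was 0.42 ± 0.11 (adjusted p = 0.0957, with the block 0.0526). Sema5a averaged 9.05 ± 0.16 in KrP samples and 9.61 ± 0.31 in WT samples (SD, n = 3 each; limma adjusted p = 0.171).

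Sema7a, a semaphorin anchored to the membrane by a lipid, showed a difference that rested on 1 sample. It had 9.84, 11.82 and 11.68 in KrP samples, against 11.90, 11.84 and 11.74 in WT samples. KrP 1 alone was low, and the log2 fold change was -0.71 ± 0.46 (adjusted p = 0.506), or -0.08 without KrP 1. Among the class 3 semaphorins, Sema3c averaged 10.21 in KrP and 10.21 in WT samples, and Sema3e, a ligand of plexin D1, averaged 7.64 ± 0.52 in KrP and 7.66 ± 0.22 in WT samples. The log2 fold changes of all 7 class 3 semaphorins ran from -0.12 to 1.02, and those of the other 13 from -0.71 to 0.88.

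Plexins, the signalling receptors of semaphorins, held the largest difference among the guidance genes. Plxna2, which works with neuropilins and also binds transmembrane semaphorins directly, had 8.72, 8.26 and 8.16 in KrP samples, against 10.16, 10.00 and 9.94 in WT samples. The groups lay more than 1 log2 unit apart. The gene was 3.15-fold lower in KrP fibroblasts (log2 fold change -1.65 ± 0.17 SE, limma adjusted p = 0.00398), and it passed in each of 15 alternatives, with an adjusted p of at most 0.0331. Plxnd1, the plexin that binds Sema3e and is best known from vessels, had 8.83, 9.29 and 8.69 in KrP samples, against 9.65, 10.17 and 9.95 in WT samples. It was 1.98-fold lower without overlap (log2 fold change -0.99 ± 0.20, adjusted p = 0.0470). Its call ended with median centring (0.0505) and without KrP 1 (0.105), KrP 3 (0.226), WT 1 (0.0645), WT 2 (0.137) or WT 3 (0.203).

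Plxnc1, the receptor of Sema7a, rose too, with a WT mean below the background guide. It had 6.61, 6.46 and 6.49 in KrP samples, against 5.97, 5.93 and 5.58 in WT samples, and its groups did not overlap. The rise was 1.62-fold (log2 fold change 0.69 ± 0.13 SE, limma adjusted p = 0.0404), a value that the low signal compresses. The call ended without KrP 1 (0.106), KrP 3 (0.181), WT 1 (0.0707), WT 2 (0.0726) or WT 3 (0.141). Plxna3 had 7.66, 7.12 and 7.52 in KrP samples, against 6.98, 6.61 and 6.77 in WT samples, without overlap (log2 fold change 0.65 ± 0.17, adjusted p = 0.107, with the block 0.0164). The 4 class A plexins thus ran from -1.65 to 0.65. Plxna4 averaged 9.21 ± 0.53 in KrP samples and 10.23 ± 0.52 in WT samples (log2 fold change -1.02 ± 0.32, adjusted p = 0.165, or 0.0412 without KrP 2), and its groups overlapped. Plxna1 had 11.83, 11.98 and 11.81 in KrP samples, against 11.80, 11.57 and 11.83 in WT samples (adjusted p = 0.558), and its weaker probe set gave a like difference (0.08, against 0.14). Plxnb2, a receptor of class 4 semaphorins, had 10.75, 10.36 and 10.53 in KrP samples, against 10.14, 10.36 and 10.06 in WT samples (adjusted p = 0.252).

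Of the neuropilin co-receptors, Nrp2 fell and Nrp1 passed once the block was added. Nrp2 had 11.41, 11.42 and 10.98 in KrP samples, against 12.00, 11.95 and 12.01 in WT samples. It fell 1.64-fold with no overlap (log2 fold change -0.72 ± 0.13 SE, limma adjusted p = 0.0336). The call ended without KrP 3 (0.0863), WT 1 (0.0977), WT 2 (0.0913) or WT 3 (0.160). Nrp1 had 9.43, 9.94 and 10.07 in KrP samples, against 10.14, 10.52 and 10.39 in WT samples, with no overlap (log2 fold change -0.54 ± 0.19, adjusted p = 0.206, with the block 0.0309).

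**Figure D2:**
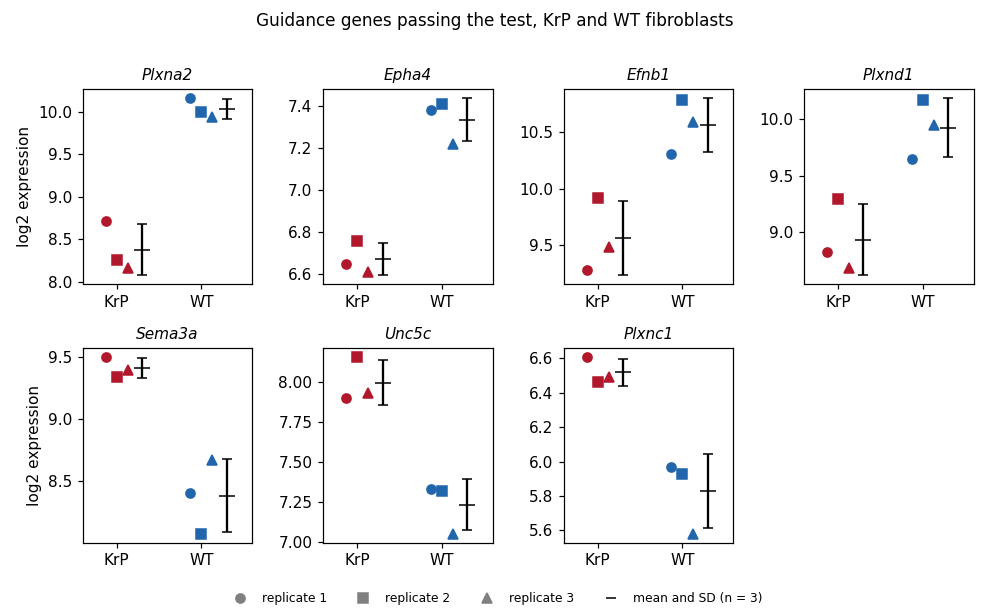
Log2 expression (vertical axis, a scale of its own in each panel) of the 4 guidance genes that fell and the 3 that rose, with each of the 3 KrP and 3 WT samples as a point and the mean with SD beside them. In all 7 panels the groups do not overlap, and Plxna2 shows the widest gap.

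The 5 A-class ephrins had higher means in KrP samples and the 3 B-class ephrins lower ones, though Efnb3 lay near 0 and turned to 0.02 without WT 1. A-class ephrins are held by a lipid anchor, whereas B-class ephrins span the membrane and can signal back into their own cell. Efnb1 fell in KrP fibroblasts, with 9.28, 9.92 and 9.48 in KrP samples, against 10.31, 10.79 and 10.59 in WT samples. The 2.01-fold difference came without overlap (log2 fold change -1.0 ± 0.19 SE, limma adjusted p = 0.0425). The call ended without KrP 1 (0.0815), KrP 3 (0.209), WT 1 (0.0636), WT 2 (0.127) or WT 3 (0.187). Efnb2 had 9.57, 10.93 and 10.16 in KrP samples, against 11.08, 11.53 and 11.23 in WT samples. Every KrP sample was below every WT sample, but the KrP samples were spread widely (log2 fold change -1.06 ± 0.31, adjusted p = 0.139, with the block 0.0142). Efnb3 averaged 6.64 ± 0.01 in KrP and 6.68 ± 0.14 in WT samples, near background.

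Of the 5 A-class ephrins none passed in the fit of all samples, and Efna2 passed once the block was added. Efna2 had 9.66, 8.49 and 9.48 in KrP samples, against 8.42, 7.84 and 8.17 in WT samples (log2 fold change 1.07 ± 0.30, adjusted p = 0.134, with the block 0.0104). Efna1 had 8.81, 7.63 and 7.97 in KrP samples, against 7.61, 7.52 and 7.22 in WT samples (0.69 ± 0.28, adjusted p = 0.281). Efna4 had 7.97, 6.83 and 7.42 in KrP samples, against 6.76, 6.56 and 6.79 in WT samples (0.70 ± 0.26, adjusted p = 0.229). Efna3 averaged 7.41 ± 0.12 in KrP and 7.0 ± 0.12 in WT samples, and Efna5 averaged 8.10 ± 0.55 in KrP and 7.50 ± 0.12 in WT samples. In 4 of the 5 genes every KrP sample lay above every WT sample, as in 11.4% of all genes, Efna5 being the exception. KrP 1 was the highest KrP sample in 4 of the 5 and KrP 2 the lowest in all 5. Without KrP 2, Efna2 (adjusted p = 0.00819), Efna4 (0.0282) and Efna5 (0.0391) passed limma. Without KrP 1 the log2 fold changes were 0.35 for Efna1, 0.84 for Efna2, 0.41 for Efna3, 0.42 for Efna4 and 0.33 for Efna5. Efna1, Efna3 and Efna4 are direct neighbours on chromosome 3 in the GRCm38.p6 assembly. The difference between the A and B classes was not tested.

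**Figure D3:**
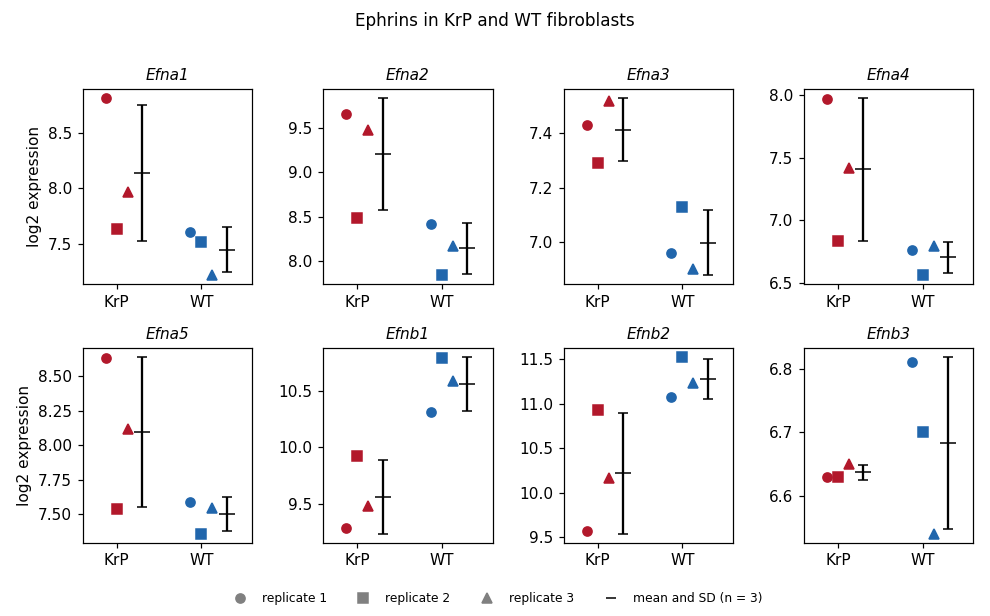
Log2 expression (vertical axis, own scale per panel) of the 8 ephrins, with each KrP and WT sample as a point and the mean with SD (n = 3) beside them. KrP means lie above WT means in the 5 A-class panels and below them in the 3 B-class panels, and KrP 2 is the lowest KrP sample in each A-class panel.

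Of the Eph receptors, the kinases that bind ephrins, Epha4 fell and the other 12 did not pass in the fit of all samples without the block. Epha4, which binds ephrins of both classes, had 6.65, 6.76 and 6.61 in KrP samples, against 7.38, 7.41 and 7.22 in WT samples. The samples of each group lay close together, and the gene was 1.58-fold lower (log2 fold change -0.66 ± 0.11 SE, limma adjusted p = 0.0273). Its KrP mean of 6.67 lay near the background guide of 6.27. The call ended without KrP 1 (0.0724), KrP 3 (0.171), WT 1 (0.0820), WT 2 (0.0704) or WT 3 (0.0859). Epha2, a receptor of A-class ephrins that is also found in epithelia, had 8.49, 9.36 and 8.79 in KrP samples, against 7.91, 7.84 and 7.86 in WT samples. The WT samples were nearly equal and the KrP samples all higher, at 2.01-fold on average (log2 fold change 1.01 ± 0.21, adjusted p = 0.0547, with the block 0.0213). Epha3 had 8.71, 7.94 and 8.38 in KrP samples, against 7.54, 7.75 and 7.39 in WT samples (0.78 ± 0.20, adjusted p = 0.105, with the block 0.0565 and without KrP 2 0.0208).

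Epha7 and Ephb4 passed once the block was added. Epha7 had 7.71, 6.91 and 7.08 in KrP samples, against 6.68, 6.44 and 6.69 in WT samples (log2 fold change 0.63 ± 0.21, adjusted p = 0.181, with the block 0.0491). Ephb4, the main receptor of ephrin-B2, had 9.64, 8.85 and 9.20 in KrP samples, against 8.98, 8.29 and 8.75 in WT samples. These groups overlapped (0.56 ± 0.24, adjusted p = 0.307, with the block 0.0233). Ephb3 averaged 8.10 ± 0.21 in KrP and 8.32 ± 0.25 in WT samples, and the other 7 Eph receptors had log2 fold changes between -0.20 and 0.24. For Ephb1, at background, the weaker probe set gave -0.14 where the main one gave 0.24.

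Among the netrin receptors, Unc5c rose. Unc5c, a receptor that turns netrin into a repulsive signal, had 7.90, 8.16 and 7.93 in KrP samples, against 7.33, 7.32 and 7.05 in WT samples. The groups were apart by more than their spread, and the rise was 1.70-fold (log2 fold change 0.76 ± 0.14 SE, limma adjusted p = 0.0329). The call ended without KrP 1 (0.0540), KrP 3 (0.150), WT 1 (0.0746), WT 2 (0.0676) or WT 3 (0.160). Unc5b, also known from vessels, had 10.56, 11.50 and 11.21 in KrP samples, against 10.62, 10.47 and 10.68 in WT samples, so KrP 1 lay among the WT samples (adjusted p = 0.316, or 0.035 without KrP 1). Unc5a had 8.17, 7.94 and 8.08 in KrP samples, against 7.91, 7.89 and 7.69 in WT samples, without overlap but by a small margin (log2 fold change 0.23 ± 0.13, adjusted p = 0.420). Unc5d averaged 6.49 in KrP and 6.37 in WT samples.

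None of the 3 netrins passed limma (1 had an unadjusted p under 0.05, and 0 passed with the block). Ntn1, the secreted netrin that attracts through Dcc, had 10.31, 10.95 and 10.48 in KrP samples, against 10.90, 11.02 and 11.05 in WT samples (log2 fold change -0.41 ± 0.16, adjusted p = 0.271, or 0.0297 without KrP 2). Ntn4, a netrin that binds laminins of the basement membrane, had 8.79, 11.17 and 11.35 in KrP samples, against 10.44, 11.72 and 11.11 in WT samples. KrP 1 and WT 1 were the low samples of their groups, and the log2 fold change was -0.65 ± 0.64 with all samples and 0.17 without KrP 1. Dcc averaged 5.35 in KrP and 5.34 in WT samples, below the background guide, while the related receptor Neo1 averaged 9.97 ± 0.66 in KrP and 9.65 ± 0.59 in WT samples (adjusted p = 0.749).

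Robo1, Robo2 and Slit3 were lower in all KrP samples, each short of the threshold in the fit of all samples without the block. Robo1 lay close to it and passed in 9 of 15 alternatives, among them leaving out KrP 1 (limma adjusted p = 0.0252), and Slit3 passed without KrP 2 (0.0289). Robo1, a receptor through which slits repel cells, had 9.63, 9.30 and 9.19 in KrP samples, against 10.07, 9.98 and 10.21 in WT samples (log2 fold change -0.71 ± 0.15 SE, limma adjusted p = 0.0514, with the block 0.0226). Robo2, the gene next to it on chromosome 16, had 7.14, 7.48 and 7.43 in KrP samples, against 7.82, 8.16 and 8.54 in WT samples (-0.82 ± 0.19, adjusted p = 0.0821, with the block 0.0138). Slit3, a secreted ligand, had 10.98, 11.29 and 11.02 in KrP samples, against 11.44, 11.73 and 11.74 in WT samples (-0.54 ± 0.13, adjusted p = 0.0781, with the block 0.0166). In none of the 3 did the groups overlap.

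Slit2 leaned the other way, with 11.83, 11.28 and 11.54 in KrP samples, against 11.39, 11.02 and 11.31 in WT samples (log2 fold change 0.31 ± 0.16, limma adjusted p = 0.391, with the block 0.0675). Its groups overlapped. Slit1 averaged 6.72 ± 0.21 in KrP and 6.69 ± 0.07 in WT samples, near background. Robo4, the Robo receptor of endothelium, averaged 5.93 in KrP and 5.80 in WT samples, and Robo3 averaged 5.18 in KrP and 5.29 in WT samples, both below the background guide.

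**Figure D4:**
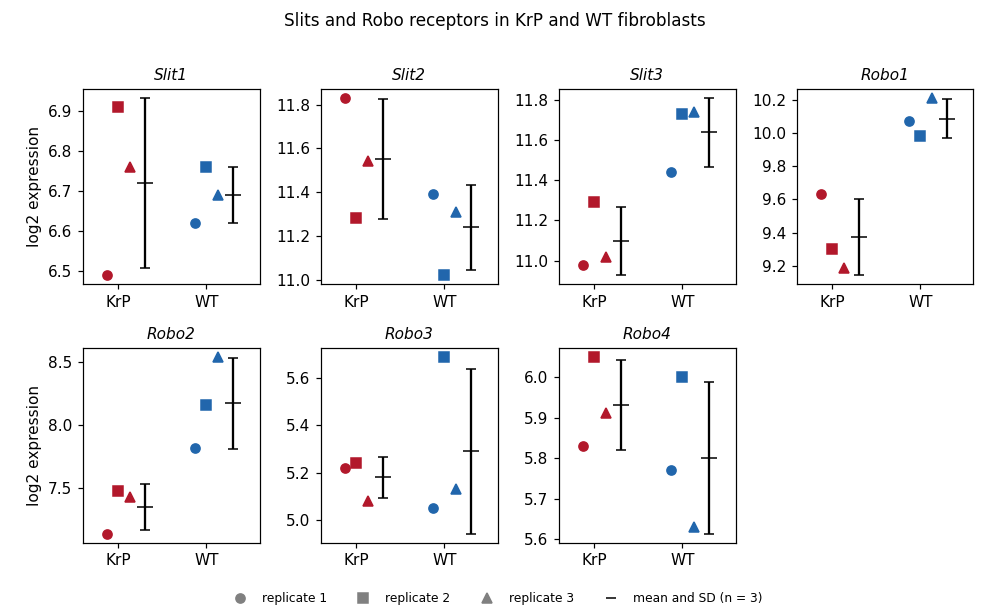
Log2 expression (vertical axis, own scale per panel) of the 3 slits and 4 Robo receptors, with each KrP and WT sample as a point and the mean with SD (n = 3) beside them. Slit3, Robo1 and Robo2 show every KrP sample below every WT sample, while Robo3 and Robo4 lie below the background guide of 6.27.

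Genes that act with these families were read from a list of 78, of which 75 were measured. Of these 4 rose, where 1.15% of all genes did, 3 fell, where 1.03% did, and 68 did not pass, with a median log2 fold change of -0.04. With the block 11 rose and 8 fell, where 5.33% and 3.02% of all genes did. Flrt3, a cell surface protein that binds Unc5 receptors and works with Robo1 in attraction to netrin, had 6.33, 6.19 and 5.92 in KrP samples, against 8.33, 8.18 and 8.23 in WT samples. It was 4.29-fold lower (log2 fold change -2.10 ± 0.13 SE, limma adjusted p = 0.00116), and the call held in all 15 alternatives. The KrP mean lay below the background guide, where low signal compresses differences. Srgap3, a signalling protein downstream of Robo receptors, had 10.52, 10.14 and 10.46 in KrP samples, against 9.14, 8.58 and 9.10 in WT samples. It rose 2.70-fold (adjusted p = 0.00925, or 0.0749 without KrP 3).

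Gpc1 and Sdc1, which carry heparan sulphate at the cell surface, rose too. Gpc1, a glypican that binds slits, had 11.50, 11.49 and 11.62 in KrP samples, against 10.51, 10.80 and 10.58 in WT samples (1.88-fold, limma adjusted p = 0.00707, or 0.0650 without KrP 3 and 0.0533 without WT 3). Sdc1, the syndecan that shares this sugar chain, had 9.37, 9.52 and 9.61 in KrP samples, against 8.56, 8.47 and 8.44 in WT samples (2.01-fold, adjusted p = 0.00707, or 0.0659 without KrP 3 and 0.0559 without WT 3). In both genes the gap between groups was wider than the range within either group. Each had 2 probe sets, and these values are from the brighter one. With the mean of the probe sets the log2 fold change was 0.68 for Gpc1, in place of 0.91, and 0.80 for Sdc1, in place of 1.01. Both still passed limma (adjusted p = 0.0288 and 0.0139). Ngef, which acts downstream of EphA receptors, rose 1.68-fold (adjusted p = 0.0346), and Rtn4r, the receptor of the nerve growth inhibitor Nogo, was 1.71-fold lower (adjusted p = 0.0469). The call of Ngef ended with quantile normalisation (0.0532) and without KrP 1 (0.0734), KrP 3 (0.128), WT 1 (0.0994), WT 2 (0.0598) or WT 3 (0.170). That of Rtn4r ended with median centring (0.0658) and without KrP 1 (0.108), KrP 2 (0.0588), KrP 3 (0.192), WT 1 (0.0863) or WT 3 (0.169).

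**Figure D5:**
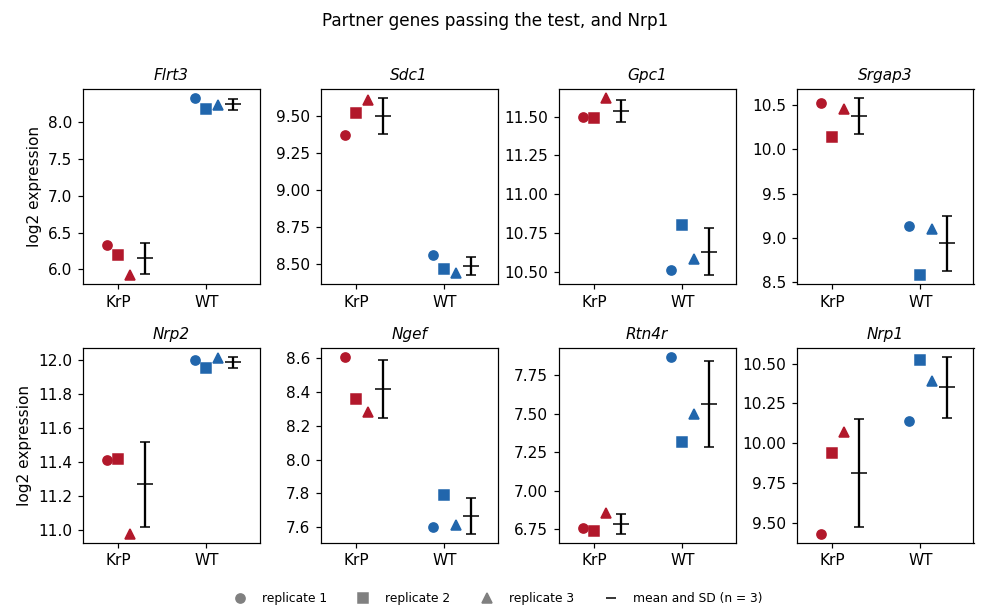
Log2 expression (vertical axis, own scale per panel) of the 7 partner genes that passed the test and of Nrp1, with each KrP and WT sample as a point and the mean with SD (n = 3) beside them. Flrt3 shows the widest gap, with KrP samples at 5.92 to 6.33 and WT samples at 8.18 to 8.33.

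Promoter sequences were set beside these values for the genes that passed, since receptors of parathyroid hormone-related protein are known to signal through cyclic AMP, whose response element is read by CREB factors. RefSeq promoters of build GRCm38.p6, 250 bases before to 50 after each start, matched 55 of the 64 genes with 71 promoters, and all 7 genes that passed had one. Efnb3, Ntn1, Plxna1, Plxna4, Sema3b, Sema3f, Sema6a, Slit1 and Unc5d had no entry. The full element TGACGTCA, searched on both strands, stood in 1 of the 71 promoters, that of Epha2, and in 1.79% of all 32851 promoters. Its core TGACG, which the full element contains, was likewise searched on both strands. The core stood in 10 of the 71 promoters (14.1%), against 20.8% of all promoters. Of the 7 genes that passed, Unc5c, Epha4 and Efnb1 held the core, at 79, 57 and 26 bases before the start, in 1 riser and 2 genes that fell. Each of them held it as its reverse complement CGTCA. The TATA box TATAAA, also searched on both strands, stood in 2 of the 71 promoters and in 13.6% of all promoters. Slit2 held it on the strand of the gene, and Efnb2 only as its reverse complement TTTATA. The E-box CACGTG stood in 5 of the 71 and in 7.15% of all. A match is a description of these letters and not a binding site.

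The 3 promoters with the core, that of Epha2 with the full element and that of Plxna2, the gene with the largest difference and no match, are shown 5′ to 3′ on the strand of the gene, with matches in capitals. They lie at chr3:141465314-141465613 on the plus strand for Unc5c, chr1:77515039-77515338 on the minus strand for Epha4 and chrX:99135811-99136110 on the plus strand for Efnb1. Those of Epha2 and Plxna2 lie at chr4:141300971-141301270 and chr1:194619579-194619878, both on the plus strand. In Epha2 the element starts 33 bases before the start site.
Unc5c: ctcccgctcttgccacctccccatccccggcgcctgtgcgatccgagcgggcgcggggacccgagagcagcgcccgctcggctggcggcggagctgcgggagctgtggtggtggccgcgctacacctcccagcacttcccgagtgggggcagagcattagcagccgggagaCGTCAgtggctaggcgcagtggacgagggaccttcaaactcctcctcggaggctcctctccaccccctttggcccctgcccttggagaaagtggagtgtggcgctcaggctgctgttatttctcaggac
Epha4: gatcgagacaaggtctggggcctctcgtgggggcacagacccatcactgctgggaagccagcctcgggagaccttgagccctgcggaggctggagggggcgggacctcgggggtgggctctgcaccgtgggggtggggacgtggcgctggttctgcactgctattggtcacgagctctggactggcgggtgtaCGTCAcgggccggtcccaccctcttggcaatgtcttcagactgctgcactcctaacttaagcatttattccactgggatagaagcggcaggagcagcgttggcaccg
Efnb1: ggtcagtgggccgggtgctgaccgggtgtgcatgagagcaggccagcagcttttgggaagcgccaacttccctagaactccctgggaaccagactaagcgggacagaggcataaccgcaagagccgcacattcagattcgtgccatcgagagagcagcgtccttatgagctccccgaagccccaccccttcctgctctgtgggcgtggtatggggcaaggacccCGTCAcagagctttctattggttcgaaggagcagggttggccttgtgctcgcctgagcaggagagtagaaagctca
Epha2: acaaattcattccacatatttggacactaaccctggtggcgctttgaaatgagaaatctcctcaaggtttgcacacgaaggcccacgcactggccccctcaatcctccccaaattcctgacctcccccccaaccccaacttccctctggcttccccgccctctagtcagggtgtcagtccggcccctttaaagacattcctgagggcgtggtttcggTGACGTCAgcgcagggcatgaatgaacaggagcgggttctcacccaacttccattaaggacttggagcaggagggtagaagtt
Plxna2: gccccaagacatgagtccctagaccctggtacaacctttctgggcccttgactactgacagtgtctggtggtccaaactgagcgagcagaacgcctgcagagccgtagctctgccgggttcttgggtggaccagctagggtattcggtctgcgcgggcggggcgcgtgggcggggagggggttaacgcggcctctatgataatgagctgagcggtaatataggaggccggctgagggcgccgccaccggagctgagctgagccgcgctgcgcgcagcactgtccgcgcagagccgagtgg

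Several of these genes are also known from vessels, pericytes or nerve, and marker values of such cells were read beside them. Of 10 endothelial markers 1 rose and 2 fell, and their mean level was 7.27 to 7.41 in KrP samples and 7.33 to 7.58 in WT samples. Pecam1 averaged 6.68 in KrP and 6.73 in WT samples, Vwf 6.38 in KrP and 6.43 in WT samples, and Emcn 5.24 in KrP and 4.88 in WT samples, all close to or below the background guide. Cdh5 averaged 8.33 in KrP and 7.79 in WT samples, with overlap, and Eng 11.65 in KrP and 11.83 in WT samples, both above the guide. Cldn5 averaged 6.21 in KrP and 7.16 in WT samples, and Tek 5.76 in KrP and 6.52 in WT samples, which were the markers that fell, whereas Flt1 averaged 9.55 in KrP and 8.48 in WT samples. Kdr, one of the 10 and a receptor of vascular endothelial growth factor that is also a semaphorin co-receptor, averaged 7.30 in KrP and 8.71 in WT samples (limma adjusted p = 0.0658, with the block 0.00158). Of 8 pericyte and smooth muscle markers 0 rose and 1 fell, and their mean level was 7.31 to 7.61 in KrP and 7.24 to 7.49 in WT samples. That marker was Cspg4, at 7.50 in KrP and 8.60 in WT samples, while Acta2 averaged 11.38 ± 0.87 in KrP and 10.06 ± 0.38 in WT samples without overlap (adjusted p = 0.154, with the block 0.0138). Rgs5 lay at 5.30 in KrP and 5.17 in WT samples, and was the only 1 of these 8 markers with a mean below the background guide. The 8 measured Schwann cell and nerve markers had a mean level of 6.30 to 6.45 in KrP and 6.31 to 6.55 in WT samples, and limma called 0 of them (1 had an unadjusted p under 0.05). Of 8 measured immune markers Csf1r rose, at 7.92 in KrP and 7.19 in WT samples, while Ptprc, the gene of CD45, lay at 4.65 in KrP and 4.85 in WT samples. The part of vascular or other cells in the guidance gene differences was not tested, and in such bulk samples fewer cells of a type and less RNA per cell cannot be told apart.

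KrP samples differed among themselves more than WT samples in these genes. The SD was above 0.5 in 10 of the 64 genes within the KrP group and in 2 within the WT group. The median SD was 0.21 in KrP and 0.16 in WT samples over the guidance genes, and 0.15 in KrP and 0.15 in WT samples over all genes. KrP 1 or KrP 2 was the highest KrP sample in 57 of the 64 genes, and KrP 3 in 7. The lowest KrP sample was KrP 1 in 21 genes, KrP 2 in 25 and KrP 3 in 18. Ties went to the lower replicate number. Neither these counts nor that of SDs above 0.5 were made over all genes, so none is shown to be particular to guidance genes. Without WT 2, the sample high in keratinocyte markers, limma called 1 guidance gene higher, Sema3a, and 1 lower, Plxna2. The counts were alike without the other WT samples, at 0 higher and 1 lower without WT 1 and 1 and 1 without WT 3. Without KrP 1 limma called 2 higher, Epha2 and Unc5b, and 2 lower, Plxna2 and Robo1. Over all genes it called 256 without WT 2, 230 without WT 1, 101 without WT 3 and 321 without KrP 1, against 483 with all samples.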

How the data were processed

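Gene expression of fibroblasts sorted from 3 KrP and 3 WT ventral skin samples was measured on 1 array each, from 100 ng of RNA per the labels' protocols. The deposited values are log2 expression per probe set made by the authors, and the submitters' processing notes list RMA and Partek but no role or version. Build, annotation and filters were not given in the sources used here. No read depth exists for arrays, so their number limits the precision.

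Of 34390 probe sets, 23521 had 1 gene in the platform annotation, 1814 several and 9055 none. Names were updated by gene ID for 23328 probe sets with RefSeq names of GRCm38.p6. A gene with several probe sets (1082 genes) was read from its brightest probe set on average, which left 22180 genes, and 61 of the 64 guidance genes had 1 probe set. Family symbols chose the members. The members, partner genes and marker lists were chosen with earlier results of these data known.

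KrP was compared with WT by limma 3.58.1 in R 4.3.3 (lmFit, eBayes with a trend on mean level) over all genes, with no filter and no block, with genes called where the Benjamini-Hochberg adjusted p was below 0.05. Each log2 fold change subtracts the WT mean from the KrP mean, and its SE is the moderated one of the fit. The script was tested on simulated data. Figures used matplotlib 3.10.9 in Python 3.11.15. Every guidance gene could be named. Sample values were given for called genes, for those added by the block and for the 2 genes of each family with the highest mean signal, with other genes by mean or range. Epha3, Efna1 and Efna4 were given in full after their values were seen.

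The groups share replicate numbers 1 to 3 in the labels. For pairs 1, 2 and 3 the correlation over genes of deviations from the group means was 0.414, 0.350 and 0.120. Between KrP and WT samples of unlike number it ran from -0.385 to 0.067. All these values share the same group means, so they are not independent of one another. As each value of a same-numbered pair exceeded 0.1, the block was treated as a possible pairing, which rests on the data and not on a label. Alternatives changed the trend, the variance prior, array weights, a filter on low values, normalisation, probe set averaging, the replicate block, or left out each sample in turn.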

Additional observations from a re-analysis of the deposited data

How the results depend on the processing

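The replicate block, which pairs KrP and WT samples by number, gave 1851 calls over all genes in place of 483, 10 higher and 9 lower guidance genes in place of 3 and 4, and 11 higher and 8 lower partner genes in place of 4 and 3. It ended no call among the guidance genes. Array weights gave 6410 calls over all genes, with 22 higher and 14 lower guidance genes and 14 higher and 20 lower partner genes, at a weight of 7.91 for KrP 3 and 0.41 to 0.63 for KrP 1, KrP 2, WT 1 and WT 2. Leaving out 1 sample at a time gave 85 to 1116 calls over all genes, 0 to 9 higher and 1 to 9 lower guidance genes, and 0 to 5 higher and 1 to 2 lower partner genes. The lowest count over all genes came without KrP 3, where limma called 0 higher and 1 lower guidance genes. In that setting 12 higher and 11 lower guidance genes had an unadjusted limma p under 0.05. The share of all genes with such a p was not counted there. In the fit of all 6 samples without the block it was 16%, against 48.4% of the guidance genes. The 9 and 9 came without KrP 2, and 0 were higher without WT 1. Only Plxna2 of the 7 called guidance genes passed in every alternative run, and none of the 7 changed direction. The other settings kept each count of calls within 1.5 times. Of the 64 guidance genes, 15 changed sign in at least 1 alternative, none of them called with or without the block.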
